A study of Mus musculus with 9 samples.

Results

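Dendritic cells labelled CIITA-/- were compared with wild-type B6 dendritic cells on 6 Affymetrix arrays, 3 of each genotype, out of 9 arrays in all. The arrays were chosen by their titles and paired by the experiment number there, as experiments 1, 2 and 3. In 1 CIITA-/- title the number is missing, and that array was placed in experiment 2, the number left over in its group. All cells are labelled as day 10 dendritic cells, with no agent, strain of the mutants, sex or age given, and the labels do not say what the day is counted from. The other 3 arrays, labelled IAb-/- after H2-Ab1, which encodes a class II beta chain, entered the fits and are given beside the results. The arrays of experiment 1 carry 12654 probe sets and those of experiments 2 and 3, of another design, 12488. Levels were not compared directly between the designs. The labels do not tell whether the arrays of a genotype were made from different mice or cultures. The p-values therefore measure the spread between these particular arrays, which may be technical.

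CIITA is a transcriptional coactivator that does not bind DNA itself. It is recruited to MHC class II promoters by the RFX complex on the X box, CREB-family factors on the box beside it and NF-Y on the Y box. Class II molecules, alpha and beta chains that carry peptides to the surface for CD4 T cells, are a defining product of dendritic cells. Their partners are the invariant chain Cd74, which escorts new class II molecules, H2-DM, which exchanges its fragment for peptide, and H2-DO, which inhibits H2-DM.

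The promoters of genes that differed in all 3 experiments are shown first, because the X and Y boxes are where CIITA is recruited. The sequences are from RefSeq (GRCm38.p6), 110 bases each, ending upstream of the annotated start and written in the direction of transcription. Capitals mark the letters AACNGATG (part of the X box), TGACG (the CREB-type box) and GATTGG (the Y box) on the strand shown. The shares of windows given after them count matches on either strand.
H2-Aa, chr17:34287854-34287963, minus strand: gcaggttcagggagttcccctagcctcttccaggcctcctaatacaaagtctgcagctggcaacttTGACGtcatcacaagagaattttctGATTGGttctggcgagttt
H2-Eb1, chr17:34305727-34305836, plus strand: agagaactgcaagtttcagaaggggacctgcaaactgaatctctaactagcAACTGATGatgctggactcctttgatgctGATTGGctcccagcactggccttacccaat
H2-DMb1, chr17:34153051-34153160, plus strand: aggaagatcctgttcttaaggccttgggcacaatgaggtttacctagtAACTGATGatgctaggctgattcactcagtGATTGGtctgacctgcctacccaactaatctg
H2-DMb2, chr17:34145109-34145218, plus strand: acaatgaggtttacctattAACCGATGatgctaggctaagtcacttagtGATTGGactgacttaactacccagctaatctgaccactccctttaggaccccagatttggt
H2-M2, chr17:37483585-37483694, minus strand: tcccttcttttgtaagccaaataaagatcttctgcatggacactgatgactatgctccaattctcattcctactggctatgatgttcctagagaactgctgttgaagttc
In H2-Eb1, AACNGATG began at -89 and GATTGG at -60 from the start. H2-DMb1 had them at -92 and -62, and H2-DMb2 at -121 and -91. H2-Aa had TGACG at -74 and GATTGG at -49 and no AACNGATG in this window, and H2-M2 had no capitals on its strand. Among 32851 promoter windows of 300 bases, 2.32% held AACNGATG, 16.1% held GATTGG and 20.8% held TGACG. The letters AACNGATG followed on the same strand by GATTGG, 25 to 35 bases on, stood in 5 windows (0.0152%), which belong to H2-Eb1, H2-Eb2, H2-DMb1, H2-DMb2 and BC051142. TGACG followed by GATTGG at 20 to 35 bases stood in 76 (0.231%). The motif letters were chosen from the known class II boxes with these sequences in view, so the shares describe the windows and test nothing. H2-Ab1, Fn1, Foxo4, Stk24, Ciita and Plxna1 are named without a promoter.

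The values are intensities on a linear scale in arbitrary units, and on each array 21.0% to 26.3% of them are negative. A noise limit was therefore set, the size that 95% of the negatives stay within. It is 1701 in the 6-array table of experiments 2 and 3 and 2203 in the 3-array table of experiment 1. Where the dimmer array of a pair lies under the limit, the fold is given as "at least", the brighter value over the limit. Differences are log2 of CIITA-/- over B6 within an experiment, with values under the limit set to it, unless a limma estimate is named. Those estimates use a lower floor (the 30th percentile of the table), so their sizes for genes that fall into noise are not measured folds. Arrays of one table share a trimmed mean of about 2500 (2502.2 to 2502.6 in the 6-array table), and Spearman correlations between arrays were 0.946 to 0.971 in the 6-array table and 0.931 to 0.933 in the other.

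As a check of the cell label, 13 of the 20 dendritic cell genes measured lay above the noise limit on all 3 B6 arrays. Itgax (CD11c) read 36158, 38206 and 33205 in B6, in the order of experiments 1, 2 and 3, and 40022, 39438 and 40779 in CIITA-/-. Xcr1, Itgae, Dpp4 and Ikzf1 were within noise on every B6 array. Ciita itself, the targeted gene, read 1045, 623 and 933 on B6 arrays, 1822, 1601 and 1639 on CIITA-/- arrays and 1224, 398 and 644 on IAb-/- arrays. All 9 Ciita values lie under the limits, yet the CIITA-/- value was the highest of each experiment (limma over all experiments, log2 0.99, SE 0.28, adjusted p = 0.89). Whether the Ciita probe set covers what was deleted is not known here, so it does not check the genotype, and directions rest on the labels. Of the genes beside Ciita on chromosome 16, Clec16a, chosen after its values were seen, read 2556, 1869 and 1232 in CIITA-/- against 1347, 441 and 564 in B6 (limma, experiments 2 and 3, log2 1.6, SE 0.31, adjusted p = 0.503). Its second probe set, on the design of experiments 2 and 3 alone, was below 0 on the B6 and CIITA-/- arrays. Of the 17 such neighbours on the array none was called in either fit.

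The chains of the class II molecules gave the steepest falls in the CIITA-/- cells. H2-Aa, H2-Ab1 and H2-Eb1 dropped from among the bright transcripts of B6 cells into the noise in each of the 3 experiments, and the remaining chains were not measurable in either genotype. The H2-DM beta chain gene H2-DMb2 fell as well and H2-DMb1 read lower in each experiment, while Cd74 was not lower. Outside these families no gene above the noise limit passed a test over all probe sets with all its probe sets agreeing.

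H2-Aa encodes the I-A alpha chain. Its probe set read 33825 in B6 cells in experiment 1, 51407 in experiment 2 and 53578 in experiment 3. On the CIITA-/- arrays it read -1893, -1520 and -2254. The IAb-/- arrays gave 65738, 46977 and 29271. All 3 CIITA-/- arrays lie below 0 and none overlaps a B6 or IAb-/- array. The falls were at least 15.4-fold, 30.2-fold and 31.5-fold, a mean difference of -4.61 ± 0.58 on the noise-limited log2 scale (SD, n = 3 experiments). With every CIITA-/- value of the 3 chains set to the limit, such an SD carries only the spread of the B6 levels over the limit. That limit differs between the designs (2203 in experiment 1, 1701 in experiments 2 and 3), so the SD spans both. In limma the estimate was -8.73 (SE 0.26, adjusted p = 0.00807) over experiments 2 and 3, and -8.66 (SE 0.36, adjusted p = 0.0058) over all experiments. Both CIITA-/- values of the first fit sit on the floor, so their own spread counts as 0 there.

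H2-Ab1, which encodes the I-A beta chain, read 44048, 17261 and 21348 in B6 and 675, 615 and 112 in CIITA-/-. The IAb-/- arrays still gave 30749, 16070 and 9621. Again the CIITA-/- arrays were all within noise and far under both other groups. The falls were at least 20-fold, 10.1-fold and 12.5-fold, with a mean difference of -3.77 ± 0.50. H2-Ab1 passed over all experiments (limma, log2 -6.09, SE 0.47, adjusted p = 0.0429) and not over experiments 2 and 3 alone (log2 -6.12, SE 0.81, adjusted p = 0.282).

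H2-Eb1, which encodes the I-E beta chain, read 49869, 26063 and 30418 in B6, 1621, 814 and 1059 in CIITA-/- and 44914, 23521 and 13882 in IAb-/-. The pattern was that of H2-Ab1, with CIITA-/- under the limit in each experiment and no overlap. Its falls were at least 22.6-fold, 15.3-fold and 17.9-fold, a mean difference of -4.20 ± 0.28. Both fits called it, with limma estimates of -4.92 (SE 0.31, adjusted p = 0.0365) and -4.93 (SE 0.26, adjusted p = 0.00756).

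H2-Ea, the alpha chain of I-E, which the H2b haplotype of B6 mice is known not to express, read -99, 161 and 218 in B6 and -178, 39 and 110 in CIITA-/-. H2-Eb2 was below 0 on all 9 arrays. Both lie in the noise in both genotypes, so no difference can be read from them. Of the 5 chain genes on the array, 3 were above the noise limit and all 3 of these fell. The median limma estimate over the 4 tested was -5.52, beside 0.01 over all genes.

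**Figure D1:**
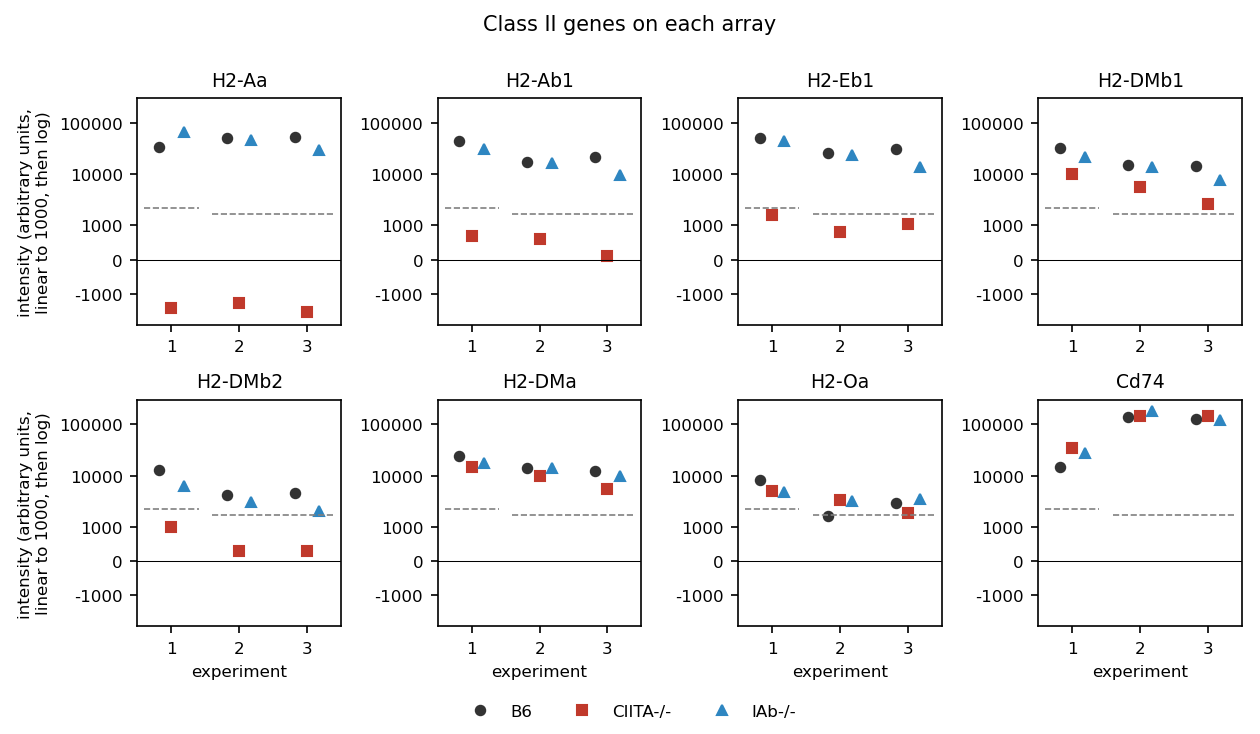
Intensity of 8 class II genes on each of the 9 arrays, by experiment, on an axis that is linear to 1000 and logarithmic above. Points are single arrays of B6, CIITA-/- and IAb-/- cells and dashed lines are the noise limits of the 2 tables. On each CIITA-/- array the chains H2-Aa, H2-Ab1, H2-Eb1 and H2-DMb2 are under the limit, H2-DMb1 is lower without reaching it, and Cd74 is not lower.

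H2-DM, the peptide exchange molecule, has 1 alpha chain gene and 2 near-identical beta chain genes, whose probe sets may pick up each other's transcript. H2-DMb2 read 12775, 4235 and 4541 in B6, 996, 300 and 303 in CIITA-/- and 6144, 3112 and 2039 in IAb-/-. It went into the noise on each CIITA-/- array, and no array overlapped the other groups. The falls were at least 5.80-fold, 2.49-fold and 2.67-fold, bounds set by how far the B6 level lies above the limit. Both fits called H2-DMb2, with limma estimates of -3.86 (SE 0.24, adjusted p = 0.0363) and -3.80 (SE 0.19, adjusted p = 0.0074). With the floor raised to the noise limit the call was lost in both, at -1.37 (adjusted p = 0.46) and -1.76 (adjusted p = 0.0722).

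H2-DMb1 read 32665, 15330 and 14460 in B6, 9913, 5507 and 2664 in CIITA-/- and 21089, 13488 and 7598 in IAb-/-. Unlike the classical chains it kept a measurable level in the CIITA-/- cells in all 3 experiments. The measured folds were 3.30, 2.78 and 5.43, a mean difference of -1.88 ± 0.50. It did not pass in either fit (limma, adjusted p = 0.597 and 0.251). With that higher floor H2-DMb1 passed over all experiments (log2 -1.88, adjusted p = 0.0055) and not over experiments 2 and 3 (-1.96, adjusted p = 0.772). A further probe set is annotated to both beta chain genes and is left without a symbol. It read 10324, 3546 and 3454 in B6 and 3728, 1028 and 541 in CIITA-/-, differences of -1.47, -1.06 and -1.02.

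H2-DMa, the alpha chain of H2-DM, read 24466, 14151 and 12429 in B6, 14559, 9942 and 5387 in CIITA-/- and 17562, 13853 and 9720 in IAb-/-. The CIITA-/- array was the lowest of each experiment, by 1.68-fold, 1.42-fold and 2.31-fold, a mean difference of -0.82 ± 0.35. The test was not passed in either fit (limma, adjusted p = 0.884 and 0.89). Its second probe set was within noise on the B6 and CIITA-/- arrays. By its differences of -0.75, -0.51 and -1.21, the alpha chain stood nearer to 0 than H2-DMb1 in each experiment.

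The chains of H2-DO went no single way. H2-Oa read 8048, 1600 and 2873 in B6 and 4990, 3315 and 1913 in CIITA-/-, differences of -0.69, 0.96 and -0.59. It was lower in experiments 1 and 3 and higher in experiment 2, where the B6 value is under the limit. H2-Ob was within noise on all 9 arrays.

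Cd74, the invariant chain and a known CIITA target, read 14649, 138308 and 129594 in B6 and 34924, 146496 and 142067 in CIITA-/-. The IAb-/- arrays gave 28200, 181665 and 118974. The CIITA-/- value was above B6 in each experiment, by 2.38-fold, 1.06-fold and 1.10-fold, without passing (limma, experiments 2 and 3, log2 0.11, SE 0.24, adjusted p = 0.969). In the 6-array table Cd74 lies at the bright end, where the highest values were 155433 and 146845 on B6 arrays and 186838 and 174671 on CIITA-/- arrays. Over 134 shared probe sets with a mean above 50000 the median difference was 0.15, 0.1 and 0.13 in experiments 1, 2 and 3. The Cre spike-in control also read higher on the CIITA-/- arrays of experiments 2 and 3, at 108986 and 106954 against 96031 and 93949. The part of this offset in the Cd74 difference was not tested.

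The enzymes that cut the invariant chain and reduce antigens had no call in either fit (limma). Ctss (cathepsin S) read 49219, 78488 and 76025 in B6 and 62694, 81684 and 76151 in CIITA-/-, differences of 0.35, 0.06 and 0.00. Ifi30 (the thiol reductase GILT) gave 0.10, -0.07 and -0.22 and Lgmn (legumain) -0.06, -0.07 and 0.04. Ctsl (cathepsin L) gave 0.47, -0.11 and -0.31. Over the 10 loading and processing genes measured, 1 was called as lower in each fit, H2-DMb2, and none as higher. Their median limma estimate was -0.08, beside 0.01 over all genes.

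In the direct contrast with the IAb-/- arrays of experiments 2 and 3, H2-Aa was lower in CIITA-/- (limma, log2 -8.23, adjusted p = 0.0106). H2-Ab1 (-5.50, adjusted p = 0.382), H2-Eb1 (-4.28, adjusted p = 0.0904) and H2-DMb2 (-3.06, adjusted p = 0.0914) did not pass. This contrast shares the CIITA-/- arrays with the comparison against B6. It called 2 of 9312 probe sets (0.0215%), the other being Kcnk7, within noise.

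The class II calls rest on few arrays. With the experiment number as a replicate block in the fit of experiments 2 and 3, H2-Aa had adjusted p = 0.0929, H2-DMb2 0.201 and H2-Eb1 0.219 (limma), and no probe set passed in either direction, with 270 lower and 336 higher at an unadjusted p under 0.05. In the unblocked fit of experiments 2 and 3, the H2-Aa call ended without either B6 array or either CIITA-/- array (adjusted p = 0.174 to 0.428), and the H2-Eb1 (0.0901 to 0.491) and H2-DMb2 (0.0856 to 0.491) calls ended without any 1 of the 6 arrays. In the fit over all experiments, H2-Aa was lost without any 1 of the B6 arrays or CIITA-/- replicate 2 or 3 (0.05 to 0.0927). H2-DMb2 was lost without the same arrays (0.0689 to 0.116), H2-Eb1 without any 1 B6 or CIITA-/- array (0.0516 to 0.116) and H2-Ab1 without any 1 of the 9 arrays (0.0689 to 0.29). With the B6 and CIITA-/- arrays alone, the fit over all experiments lost H2-Ab1 (adjusted p = 0.876) and H2-DMb2 (0.0573) and still called H2-Aa (0.0114) and H2-Eb1 (0.0302). The fit of experiments 2 and 3 then lost H2-Eb1 (0.0901) and H2-DMb2 (0.0856) and still called H2-Aa (0.0131).

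Across all genes the question was how much else differs between these cells. Few probe sets differed by much in the same way in each experiment, and the class II family made up 6 of the 7 that were at least 1.5-fold lower in all 3. In the fit of experiments 2 and 3, 7 of 9312 probe sets were called as lower (0.0752%) and 2 as higher (0.0215%). At an unadjusted p under 0.05 the numbers were 246 lower (2.64%) and 300 higher (3.22%). Besides H2-Aa, H2-Eb1 and H2-DMb2 the lower calls were Emid1, Zfp1, Chrm4 and Il13, and the higher ones Kcnk7 and Bmp10. Zfp1, Chrm4, Il13, Kcnk7 and Bmp10 were within noise on all the B6 and CIITA-/- arrays, so their calls give no measured change. For Emid1 the called probe set read 1858 and 1703 in B6, just above the noise limit, and -843 and -646 in CIITA-/-. A brighter Emid1 probe set went the other way, at 2903 and 2382 against 3506 and 3538 (limma, log2 0.42, adjusted p = 0.864).

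Over all 3 experiments, 4 of 7768 shared probe sets were called as lower (0.0515%), H2-Aa, H2-Ab1, H2-Eb1 and H2-DMb2. As higher, 0 passed (0.0%) in limma. Unadjusted p-values under 0.05 numbered 196 lower (2.52%) and 176 higher (2.27%).

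Agreement between experiments was counted without a test, on the 3417 of 9977 shared probe sets with B6 or CIITA-/- above the noise limit in each experiment. A difference of the same direction in all 3 experiments was shown by 473 as lower (13.8%) and 580 as higher (17.0%). At 1.5-fold or more in each, 7 were lower (0.205%) and 3 higher (0.0878%). The 7 are H2-Aa, H2-Eb1, H2-Ab1, H2-DMb1, H2-DMb2, the probe set of both H2-DM beta chain genes and H2-M2, and the 3 are Foxo4, Fn1 and Stk24. Single experiments held far more, with 73, 59 and 103 lower and 74, 51 and 107 higher by that size in experiments 1, 2 and 3.

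Across these probe sets, which are not independent replicates and share each experiment's 2 arrays, the Pearson correlation of differences was 0.23 between experiments 1 and 2, 0.19 between 1 and 3 and 0.38 between 2 and 3. Without the 13 probe sets of the class II lists it was 0.02, 0.0 and 0.22. Without class II, the correlation of experiment 1 with either other experiment was thus near 0. Experiments 2 and 3 share an array design, and its part in their higher value was not tested.

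**Figure D2:**
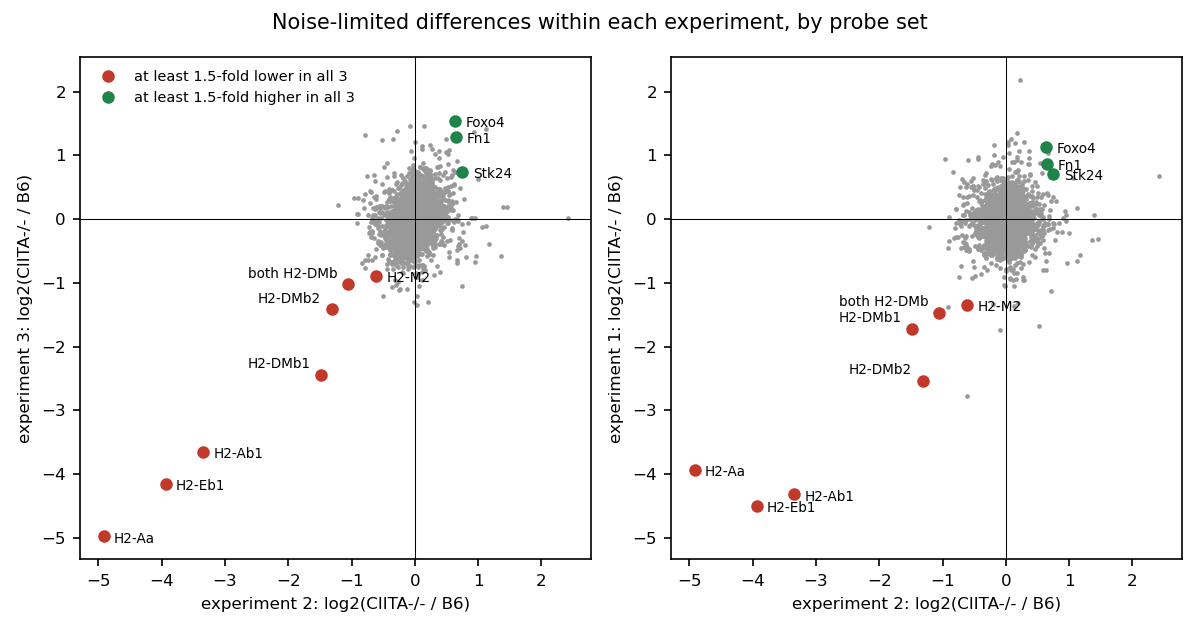
Log2 of CIITA-/- over B6, limited at the noise limit, for 3417 probe sets, with experiment 2 on the horizontal axes and experiments 3 and 1 on the vertical ones. Coloured points differ at least 1.5-fold the same way in all 3 experiments, 7 lower and 3 higher. The classical chains lie alone at the lower left, between -3.34 and -4.98, and most other probe sets lie near 0. Without the class II lists the Pearson correlation was 0.22 between experiments 2 and 3 and 0.02 between 1 and 2.

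Outside the class II region genes, the 1 gene at least 1.5-fold lower in each experiment was H2-M2, a class I heavy chain gene of the H2-M region. It read 28332, 11308 and 14028 in B6, 11103, 7404 and 7588 in CIITA-/- and 16648, 12796 and 10998 in IAb-/-. The CIITA-/- array was the lowest of the 3 in each experiment. The folds were 2.55, 1.53 and 1.85, a mean difference of -0.95 ± 0.37, and neither limma fit called it (adjusted p = 0.603 and 0.89).

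Fn1 (fibronectin, an extracellular matrix protein) read 3650, 2272 and 2789 in B6, 6651, 3565 and 6791 in CIITA-/- and 5404, 6061 and 4148 in IAb-/-. CIITA-/- exceeded B6 in each experiment, by 1.82-fold, 1.57-fold and 2.44-fold, but so did IAb-/-. The mean difference was 0.93 ± 0.32 and no fit called it (limma, adjusted p = 0.864 and 0.89). Fn1 is on the list of 15 fibroblast and stromal genes, of which 3 lay above the noise limit. The summed level of that list, with Fn1 in it, was 9478, 12737 and 14525 in B6 and 11596, 16415 and 21927 in CIITA-/-. The IAb-/- sums, also with Fn1, were 12689, 18241 and 14654. Because Fn1 was picked for its rise and enters every sum, the sums cannot show whether the rest of the list was higher. The other list members above the limit were collagen genes. Col6a1 read 2406, 2307 and 2009 in B6 and 2281, 2471 and 2571 in CIITA-/-, differences of -0.08, 0.10 and 0.36. Col1a2, on a probe set of the design of experiments 2 and 3 alone, read 5133 and 5060 in B6 and 6164 and 6638 in CIITA-/-, differences of 0.26 and 0.39, while its other probe set was below 0. Neither was called (limma). The collagen genes Col1a1 and Col3a1 and decorin (Dcn) were within noise on every array. What part the list has in the Fn1 difference was not tested. In these bulk samples, more cells of a type cannot be told apart from more RNA per cell.

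Foxo4, a forkhead transcription factor, read 933, 1865 and 2324 in B6, 4848, 2887 and 6745 in CIITA-/- and 2275, 2539 and 5771 in IAb-/-. It was highest in CIITA-/- in each experiment, over B6 by at least 2.20-fold and by 1.55-fold and 2.90-fold. The mean difference from B6 was 1.10 ± 0.45 and the gene was not called (limma, adjusted p = 0.931 and 0.89). IAb-/- was above B6 in each experiment as well. In the direct contrast of experiments 2 and 3, CIITA-/- stood over IAb-/- by a limma log2 of 0.21 (SE 0.58).

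Stk24, a kinase of the STE20 family, read 1847, 1385 and 1399 in B6 and 3607, 2863 and 2849 in CIITA-/- on its agreeing probe set. The IAb-/- arrays gave 4340, 1824 and 1499, above B6 in each experiment and above CIITA-/- in experiment 1. All 3 B6 values are under the limit, so the differences of at least 1.64-fold, 1.68-fold and 1.67-fold are bounds. A brighter probe set of Stk24, on the design of experiments 2 and 3 alone, did not show them, at 9461 and 9696 in B6 against 9674 and 6520 in CIITA-/-. The probe sets of this gene therefore disagree.

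Several genes differed the same way in all 3 experiments with at least 1 difference under the threshold of 1.5-fold (log2 0.58). Wnk1, a kinase of ion transport, differed by -0.91, -0.73 and -0.56 and H2-M3, which presents formylated peptides in the manner of class I, by -0.49, -0.63 and -0.60. H2-M3 read 3354, 2314 and 2160 in CIITA-/- and was lower still in IAb-/-, at 2943, 1447 and 1492, against 4701, 3577 and 3267 in B6. Tnfrsf18 (GITR, a TNF receptor family member) gave -0.48, -0.61 and -0.48, with B6 at 3229, 3108 and 2626. Perp gave -0.46, -0.45 and -0.70, the last a bound, and Abcf1 -0.87, -0.40 and -0.39. Egln1 gave -0.37, -0.68 and -0.64 and Glb1 -0.46, -0.43 and -0.34, with a second Glb1 probe set within noise. In the other direction, Add1 (adducin, a cytoskeletal protein) gave 0.72, 0.57 and 0.66, Asns (asparagine synthetase) 0.52, 0.50 and 1.26, and Chchd10 (a mitochondrial protein) 0.69, 0.39 and 1.07. Rps13 (a ribosomal protein) gave 0.71, 0.38 and 0.97, bounds in experiments 1 and 3, where B6 was under the limit. Cilp2 gave 0.87, a bound, 0.36 and 0.40, and Lpl (lipoprotein lipase) 0.34, 0.55 and 0.40. None of these genes was called in either fit (limma). Several of these directions were shared by the IAb-/- arrays. For Wnk1, Tnfrsf18, Perp, Egln1 and Glb1, IAb-/- was also under B6 in each experiment, with Tnfrsf18 at 2061, 2381 and 2039. For Asns, Chchd10 and Cilp2 it was also above B6 in each. Abcf1, Add1, Rps13 and Lpl did not keep their direction in IAb-/- in every experiment. A dimmer probe set of Lpl gave 0.47 and 0.32 in experiments 2 and 3, in the same direction. A dim probe set of Wnk1 did not show the lower CIITA-/- level in both, at 1295 and 1710 in B6 and 1968 and 1236 in CIITA-/- (at least 0.21, and -0.01), and a further one was within noise. For Foxo4, Fn1 and Stk24, just inside, the smallest of the 3 differences was 0.63, 0.65 and 0.71.

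**Figure D3:**
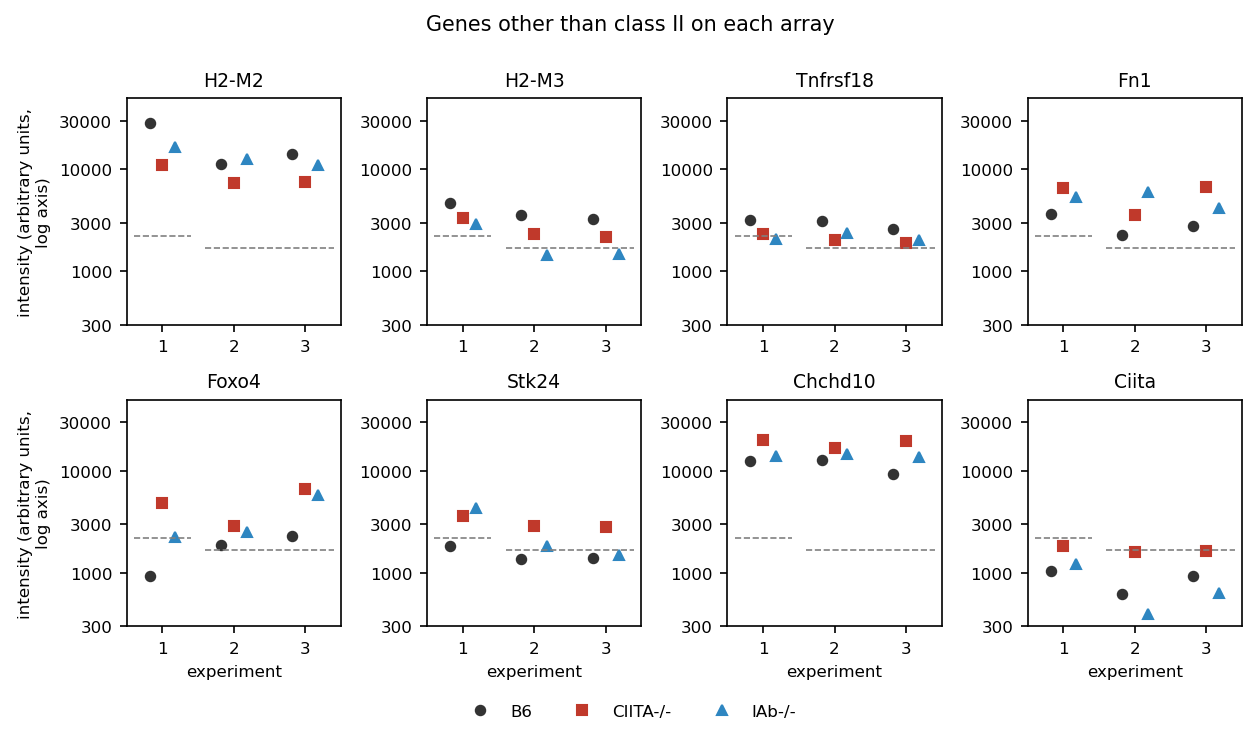
Intensity of 8 genes outside the class II family on each of the 9 arrays, by experiment, on a log axis. Points are single arrays and dashed lines the noise limits. H2-M2 is lowest in CIITA-/- in each experiment, H2-M3 is lowest in IAb-/-, and Foxo4 and Chchd10 are highest in CIITA-/-. For Foxo4 and Chchd10, IAb-/- is also above B6 in each experiment.

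Of the 2445 probe sets on the design of experiments 2 and 3 alone, 674 had B6 or CIITA-/- above the limit in both experiments, and 5 differed by 1.5-fold the same way in both (0.742%). Atp9a (0.59 and 0.73) and Rbfox2 (0.72 and 1.83) were higher, and Mbd2 (-0.72 and -0.67), Sf3b2 (-0.91 and -1.05) and Pcx (-0.70 and -0.74) lower. With 2 experiments and no call in limma (adjusted p = 0.65 to 0.931), these are descriptions.

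The gene lists around antigen presentation showed no further called member. At an unadjusted p under 0.05 over experiments 2 and 3 (limma), the 16 promoter factors tested held 0 lower and 1 higher, beside 2.64% lower and 3.22% higher over all probe sets. The 13 other named targets held 0 and 1, the 13 class I presentation genes 1 and 0, the 21 neighbours of the class II genes 0 and 2 and the 14 neighbours of Ciita 1 and 2. The 13 plexins and their ligands held 0 and 0, the 19 lineage genes 0 and 1 and the 17 maturation genes 1 and 0. The 23 lysosomal genes held 0 and 2, the 15 cholesterol genes 0 and 0, the 20 cytokines 0 and 2, the 14 interferon-induced genes 1 and 1 and the 19 proliferation genes 2 and 2. Of the marker lists of other cells, the 14 macrophage genes held 0 and 0, the 10 neutrophil genes 1 and 2, the 11 mast cell genes 2 and 0, the 10 fibroblast genes 0 and 2 and the 9 B cell genes 0 and 1. The T cell, NK cell and erythroid lists, 7 tested in each, held 0 and 0. Of the factors that act at class II promoters, 16 of 21 were measured and 11 lay above the limit, and none was called in either fit. Nfya, a subunit of NF-Y, read 7158, 4259 and 3870 in B6 and 5696, 4188 and 3379 in CIITA-/-. Spi1 (PU.1), a myeloid transcription factor, gave -0.03, -0.05 and -0.21. Rfxank, a subunit of RFX, was within noise. The median limma estimate of the 16 tested was -0.09.

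Class I presentation genes were also without a call, with 13 of 14 above the limit and a median estimate of -0.08 over the 13 tested. H2-K1, a classical class I heavy chain, read 39733, 102713 and 96683 in B6 and 48496, 109518 and 101222 in CIITA-/-. B2m, the class I light chain, differed by 0.11, 0.03 and 0.07. The immunoproteasome subunit Psmb9 gave -0.08, -0.27 and -0.42 and the transporter Tap1 -0.20, -0.09 and -0.21, the same direction in each experiment. Both lie in the class II region, where 25 neighbours of the class II genes were measured and none was called. The median estimate over the 21 neighbours tested was 0.13.

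The list of other genes named as CIITA targets had 15 measured members, 8 above the limit, and none called in either fit. Plxna1, a semaphorin receptor, read 1810, 1102 and 991 in B6, -805, -1931 and 1086 in CIITA-/- and 2398, 667 and -900 in IAb-/-. The B6 and CIITA-/- values lie within noise, so no level can be given (limma, experiments 2 and 3, log2 -1.51, adjusted p = 0.931). Plxnd1, another receptor of the plexin family, was bright, at 24687, 25035 and 24761 in B6 and 26124, 26177 and 25817 in CIITA-/-, differences of 0.08, 0.06 and 0.06. Of 20 plexins, semaphorins, neuropilins and partners measured, none was called. Sema7a, a semaphorin anchored in the membrane, gave -0.28, -0.15 and -0.69.

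Genes of dendritic cell identity kept a median near 0, while that of maturation genes moved between experiments. The 19 lineage genes tested had a median estimate of -0.03, and the 17 maturation genes tested one of -0.15. Of the 20 lineage and 21 maturation genes measured none was called. Over the 13 maturation genes compared in all experiments, the median difference was 0.11, -0.13 and -0.30, beside 0.01, 0.01 and -0.0 over all probe sets. The transcription factor Irf4 gave -0.03, 0.00 and -0.03 and Batf3 -0.01, -0.13 and -0.03. Ly75 (DEC-205, an antigen uptake receptor) read 14788, 16708 and 16998 in B6 and 11627, 14093 and 13280 in CIITA-/-, lower in each experiment by -0.35, -0.25 and -0.36. The costimulatory ligand Cd86 gave -0.03, -0.13 and -0.07, and -0.04, -0.11 and -0.45 on a dimmer probe set. The maturation marker Cd83 gave 0.12, -0.00 and -0.11. Ccr7, the receptor that guides dendritic cells to lymph nodes, gave 0.11, -0.12 and -0.55. The chemokines Ccl17 and Ccl22 read higher in CIITA-/- in each experiment, by 0.15 to 0.25 and 0.21 to 0.33, beside the median of 0.1 to 0.15 given for bright probe sets.

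Itgam (CD11b) read 4222, 1341 and 1406 in B6 and 4751, 2124 and 3447 in CIITA-/-, differences of 0.17, 0.32 and 1.02. Among macrophage genes, Fcgr1 gave 0.12, 0.35 and 0.81 and Lyz2 0.11, 0.22 and 0.68. These were the only 2 of the 6 compared in all experiments that were higher in each, and 0 were lower in each. Over all probe sets 17.0% were higher and 13.8% lower in each, and 6 genes are too few to set against these shares. Csf1r gave -0.04, 0.06 and 0.43, Sirpa -0.23, 0.20 and 0.49 and Msr1 -0.09, 0.08 and -0.34. Other Sirpa probe sets did not show a rise, at -0.06, -0.08 and -0.01, and at -0.06, -0.00 and -0.54. Of the 15 macrophage genes measured, 6 lay above the limit and none was called. Their summed level was 102581, 39910 and 34984 in B6 and 99047, 44695 and 51296 in CIITA-/-, lower in CIITA-/- in experiment 1 and higher in experiments 2 and 3. The IAb-/- sums of 54416 and 44834 were also above B6 in experiments 2 and 3. Whether macrophages have a part in these differences was not tested.

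Markers of other blood cells were sparse. No NK cell gene (0 of 9) and 1 of 13 T cell genes lay above the limit, and Cd3e was below 0 on all 9 arrays. For B cells it was 3 of 13, for neutrophils 3 of 15, for mast cells and basophils 1 of 15 and for erythroid cells 4 of 10. The Il13 call named above belongs to the mast cell list, whose proteases Cpa3, Mcpt2 and Mcpt4 were within noise. The 1 member above the limit, the protease Mcpt1, read 6867, 6821 and 6096 in B6 and 7084, 7800 and 8114 in CIITA-/-, differences of 0.04, 0.19 and 0.41, without a call, and its second probe set was within noise. Summed neutrophil levels were 14803, 17377 and 15099 in B6 and 19865, 20229 and 17604 in CIITA-/-. The IAb-/- sums of 21262, 18936 and 16169 were also above B6 in each experiment. Csf3r, a member of that list, read 1822 in B6 and 4320 in CIITA-/- in experiment 1. Its other probe sets were below 0 on the B6 and CIITA-/- arrays. T cell sums were 6009, 5536 and 4689 in B6 and 5833, 5215 and 7190 in CIITA-/-, lower in experiments 1 and 2. B cell sums were 16150, 21333 and 24096 in B6 against 16774, 22547 and 24985 in CIITA-/-. NK cell sums were 1816, 1556 and 783 against 2432, 2197 and 1844, with no member above the limit. Mast cell sums were 11374, 11140 and 9616 against 12246, 11058 and 10997. Erythroid sums were 19625, 31911 and 36486 against 20548, 30924 and 37719. Both were lower in CIITA-/- in experiment 2 and higher in experiments 1 and 3.

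Lysosomal genes were mostly measurable, 22 of 23, and 8 of the 19 compared in all experiments were higher in each, against 17.0% of all probe sets, with none lower in each. Ctsd (cathepsin D) read 26597, 51396 and 42378 in B6 and 31602, 59118 and 63135 in CIITA-/-, differences of 0.25, 0.20 and 0.58. Npc1, a cholesterol exporter of the lysosome, gave 0.05, 0.36 and 0.47. None was called (limma). The part of the offset of bright probe sets given above was not tested here. Cholesterol synthesis genes leaned the other way, with a median estimate of -0.44 over the 15 tested. Of the 16 measured only 6 were above the limit, and the median of these 6 was -0.14. Hmgcs1, an early enzyme of the pathway, gave -0.22, -0.40 and -0.57 and Sqle (squalene epoxidase) -0.37, -0.31 and -0.14. Idi1 (an isomerase of the pathway) gave -0.45, 0.03 and -0.90.

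In inflammatory cytokines and chemokines (9 of 23 above the limit, median estimate 0.19), interferon-induced genes (3 of 18, -0.04) and proliferation genes (5 of 24, 0.11), no member was called. These medians cover the 20, 14 and 19 members tested. The macrophage chemokine Ccl4 gave -0.54, 0.24 and 0.76 and Ccl3 -0.30, 0.06 and 0.74, which turn direction between experiments. Irf1 (an interferon response factor) gave 0.51, -0.72 and -0.21. Lcn2 (lipocalin, a neutrophil protein), on the design of experiments 2 and 3 alone, read 1970 and 1704 in B6, 2595 and 2955 in CIITA-/- and 6575 and 4726 in IAb-/-.

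**Figure D4:**
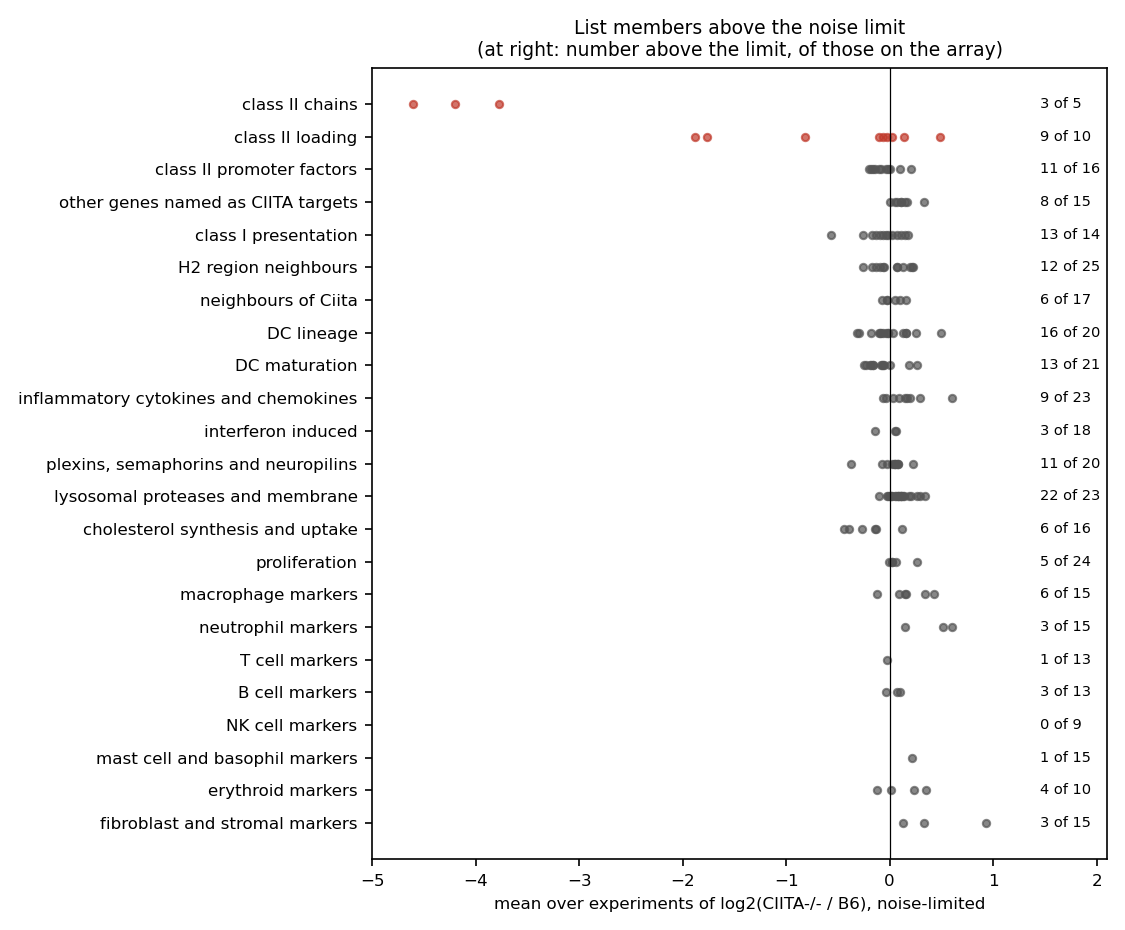
Mean over the experiments of the noise-limited log2 of CIITA-/- over B6, for each member above the noise limit of 23 gene lists, with the number above the limit of those on the array at the right. The 3 class II chains lie between -3.77 and -4.61, H2-DMb1, H2-DMb2 and H2-DMa follow, and the members of the other lists lie within about 1 of 0.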

How the data were processed

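Transcripts were measured on 9 arrays, 3 per group. The authors deposited 1 intensity per probe set and array on a linear scale, with the algorithm not given in the sources used here. Per the labels' description, RNA preparation, labelling and hybridization followed an earlier publication. Control probe sets were left out. Tests used limma 3.58.1 (lmFit and eBayes, two-sided, Benjamini-Hochberg adjustment, threshold 0.05) in R 4.3.3, with checks on simulated data. In the 6-array table (all groups, 3 residual degrees of freedom), the 30th percentile (123.5) served as the lowest value before log2, and the test covered the 9312 of 12422 probe sets that exceeded this floor on 2 or more arrays. The fit over all experiments used 7768 shared probe sets above the floor (93.2 in the 3-array table) on at least 3 arrays, with experiment as a block. The titles number the arrays by experiment, which pairs them; deviations of same-numbered arrays from their group means correlated at 0.05 (B6 with CIITA-/-), 0.08 and 0.21. Agreement counts and lists used Python 3.11.15.

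Symbols came from the platform's annotation. For experiments 2 and 3, 10833 probe sets have 1 symbol, 396 several and 1193 none, and for experiment 1 the numbers are 10276, 363 and 1949. A gene is given by its brightest probe set, or by the one that was called or agreed. Named are Ciita, Plxna1, the class II chain and loading genes, every called gene, up to 12 per direction that agreed in all experiments, the nearest below that threshold, and up to 4 members of other lists. Members, lists and rules were chosen with earlier results of these data known. Alternatives changed the arrays fitted, block, floor, filter, normalization, variance prior, fold size, noise limit and probe set rule, and left out single arrays.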

Additional observations from a re-analysis of the deposited data

How the results depend on the processing

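The genes followed here were Emid1 and those with a symbol that differed at least 1.5-fold the same way in all 3 experiments. The remaining called genes, all within noise, were not followed. Over the alternatives run, 213 values stayed on their side of the adjusted p threshold, called or not, 68 lost the call and 4 gained it. No value turned sign, which selection for a shared direction or for a call makes likely and which therefore tests nothing. In experiments 2 and 3 (limma, 7 lower and 2 higher), the calls were 1 lower and 0 higher with the B6 and CIITA-/- arrays alone, 0 and 0 with the replicate block, 3 and 0 with the floor at the noise limit, 4 and 0 with the filter there and 3 and 0 with an intensity trend. Higher calls were 6 with no filter and 0 on the asinh scale. With the floor at the 40th percentile, chosen after seeing the data, they were 0. Leaving out 1 array gave 0 to 1 lower and 0 to 0 higher. Over all experiments (4 lower, 0 higher), lower calls were 2 with B6 and CIITA-/- arrays alone (H2-Aa and H2-Eb1) and 0 with no filter, where 259 had an unadjusted p under 0.05. Leaving out 1 array gave 0 to 4 lower and 0 to 2 higher, the 2 higher without CIITA-/- replicate 1. The contrast with IAb-/- gave 0 calls each way with the replicate block (226 lower and 266 higher at an unadjusted p under 0.05).

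Instead of 3 genes higher in all experiments there were 0 at 2-fold or more and 0 with the noise limit at the 99th percentile. With the limit at the 90th there were 5, Foxo4, Fn1 and Stk24 with Paip2b and Tyms-ps. With 1 experiment left out, 11 to 14 were lower and 6 to 10 higher. The first 7 and 3 are among them by the rule itself, which tests nothing. The median of the class II chains was -6.12 over members above the noise limit. The planned floor at the 20th percentile was not run, since that percentile is negative (-32 and -132.3). Signal limits what can be seen: 60.1% of probe sets of the 6-array table and 66.6% of the 3-array table lie under the noise limit on every array.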
